A study of Homo sapiens with 8 samples.

Results

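The p63-bound regions around 8 genes of the Notch pathway were taken from the deposited region lists of the squamous carcinoma lines CAL27 and SCC13. The genes were the receptors NOTCH1, NOTCH2 and NOTCH3, the ligands JAG1, JAG2 and DLL1, and the target genes HES1 and HEY1. A region was a member if its midpoint fell in a fixed window around a gene, given in hg19 coordinates. The windows were 0.20 to 0.36 Mb long and 1.93 Mb in all. They held 40 different regions of the 15267 in both lists together. Of the CAL27 list, 39 of 13829 regions were members, and of the SCC13 list, 16 of 5886.

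Both lines are established human squamous cell carcinoma cells, labelled as wild type and untreated. CAL27 was grown in DMEM F:12 with serum, and SCC13 in Keratinocyte-SFM with bovine pituitary extract, EGF and calcium chloride, so line and medium cannot be told apart. In each line there were 2 chromatin immunoprecipitations (ChIP) with a p63 antibody and 2 samples titled none, 8 samples in all. Each line had 1 list for both p63 replicates, holding the chromosome, start and end of a region and no score, so no replicate spread, sequencing depth or binding strength could be had. A region missing from a list is therefore not shown to be unbound. Values of the 2 lines are set side by side without a test.

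Notch receptors are cell-surface proteins that are cleaved when a ligand of the Jagged or Delta-like family on a neighbouring cell binds them. The released intracellular part enters the nucleus, joins the DNA-binding protein RBPJ and switches on target genes such as HES1 and HEY1, which encode transcriptional repressors. In stratified epithelium Notch signalling promotes the exit of basal keratinocytes into differentiation. The transcription factor p63 maintains the basal state, and both are known to act on each other. A window also holds other genes, and gene models of hg19 were not used here, so no region is assigned to a gene, exon, intron or promoter. In the gene order of RefSeq for GRCh38, for example, NOTCH1 lies between SEC16A and EGFL7, JAG1 between SLX4IP and BTBD3, and JAG2 between GPR132 and NUDT14.

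All 8 windows held a CAL27 region, and 5 held an SCC13 region. The windows held 20.2 CAL27 regions per Mb, against 4.71 in the rest of that list, counted over the stretch of each chromosome between its first and last listed region. For SCC13 the densities were 8.29 per Mb in the windows and 2.00 per Mb in the rest. With windows cut by 50 kb on each side, the windows held 16.8 CAL27 and 3.54 SCC13 regions per Mb, the latter on 4 regions. The chromosomes include long parts without regions: 47.5% of 0.25 Mb bins laid along them held no CAL27 region. The windows lie around genes, and the density around other genes was not measured. Of the 40 regions, 15 were in both lists, 24 were in CAL27 only and 1 was in SCC13 only. All 15 had the same start and end in both lists. In the windows, 38.5% of the CAL27 regions were also listed in SCC13 (95% exact Clopper-Pearson interval 23.4 to 55.4), against 32.2% of the whole CAL27 list. Of the SCC13 regions in the windows, 93.8% were also listed in CAL27 (69.8 to 99.8), against 75.6% of the whole SCC13 list. These intervals cover counting error only and treat the regions as independent, though regions of 1 window are not, so they are too narrow. Even so, each includes the percentage of its whole list.

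**Figure D1:**
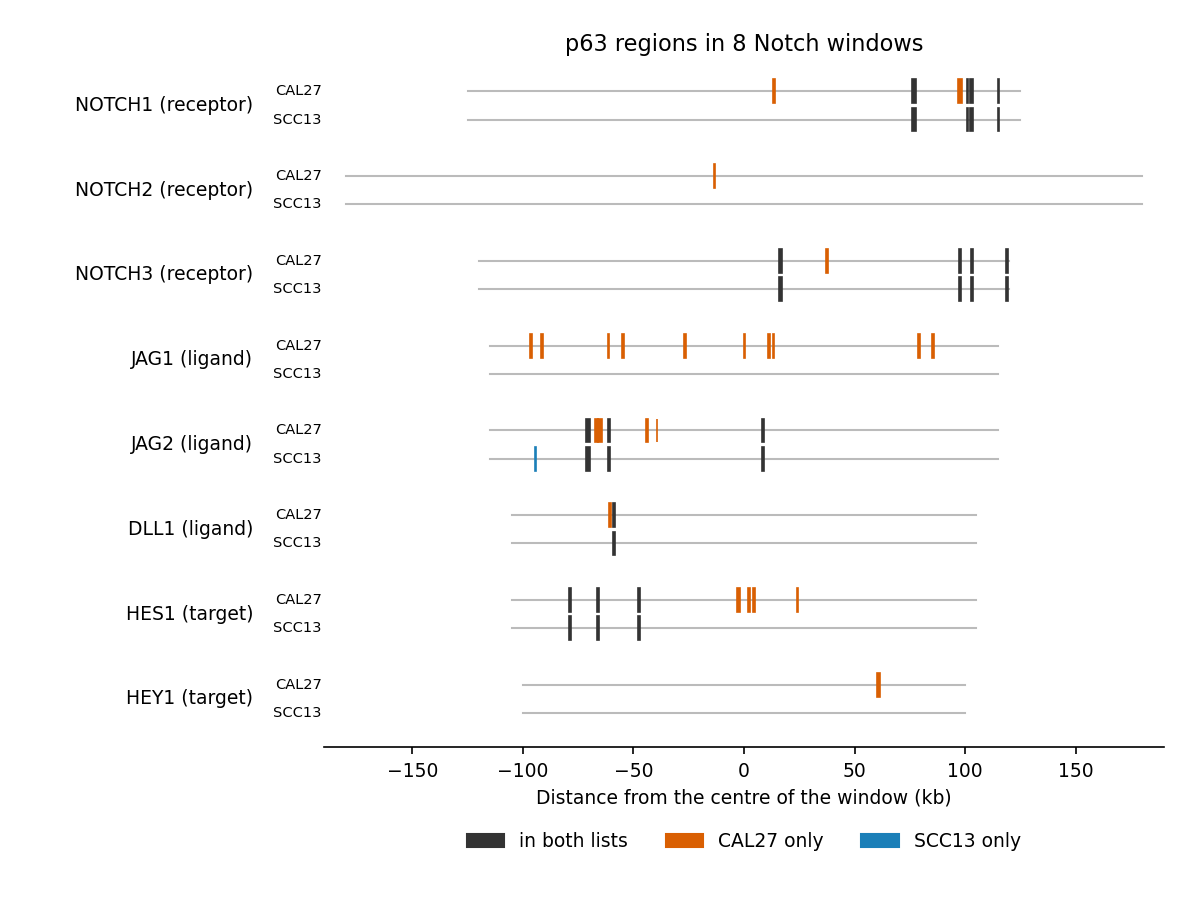
Positions of the p63 regions in each window, as distance from the window's centre in kb, with a CAL27 and an SCC13 row per gene. Grey lines span the windows, blocks are regions drawn to width, and colour gives the list. The JAG1 rows hold 10 CAL27 regions and no SCC13 region, and at HES1 the 3 regions in both lists lie apart from the 4 in CAL27 only.

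The receptor windows differed widely among themselves. NOTCH1, a receptor often mutated in squamous carcinomas, had 6 CAL27 and 4 SCC13 regions in its window on chromosome 9 (139.29 to 139.54 Mb). NOTCH3, a receptor of the same family, had 5 CAL27 and 4 SCC13 regions on chromosome 19 (15.17 to 15.41 Mb). NOTCH2 had 1 CAL27 region and none in SCC13, in the longest window of the set, on chromosome 1 (120.35 to 120.71 Mb). Every SCC13 region of the NOTCH1 and NOTCH3 windows was also a CAL27 region, against 75.6% of the whole SCC13 list. Over the 3 receptor windows 66.7% of the CAL27 regions were in both lists (8 of 12, 95% exact interval 34.9 to 90.1), against 32.2% of the whole CAL27 list. The interval treats the 12 regions as independent, though regions of 1 window are not, so it is too narrow to set against that share.

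At NOTCH1 the 4 regions in both lists lay at 139491170 to 139492618 (1449 bp), 139515420 to 139515988 (569 bp), 139517784 to 139518924 (1141 bp) and 139530029 to 139530646 (618 bp). The widest region of the window was in CAL27 only, at 139511867 to 139513509 (1643 bp), with its midpoint 3.02 kb from the nearest SCC13 region. The other CAL27-only region lay 13.5 kb above the centre of the window, and 63.4 kb from the nearest listed region of either line. All 6 regions lay above the centre, 5 of them within 76.9 to 115 kb of it. NOTCH1 is on the minus strand in RefSeq's GRCh38 table, so higher coordinates run in its upstream direction. A place above the centre does not put a region outside the gene, whose hg19 position was not used. Of all bins of the same 0.25 Mb length laid along the chromosomes, 2.60% held at least 6 CAL27 regions and 1.11% at least 4 SCC13 regions.

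At NOTCH3 the regions in both lists lay at 15305881 to 15307091 (1211 bp), 15387288 to 15388067 (780 bp), 15392987 to 15393846 (860 bp) and 15408484 to 15409222 (739 bp). The remaining region, at 15327180 to 15327727 (548 bp), was in CAL27 only. As at NOTCH1, all regions were above the centre, and this gene too is on the minus strand, which again does not put them outside the gene. The last 3 of the regions in both lists followed one another with no line-only region between them, as did the last 3 at NOTCH1. Of the 3102 runs of regions in both lists over the genome, 299, or 9.64%, had 3 or more. Here and below each run counts once whatever its length, so long runs hold a larger share of the regions than of the runs. Among bins of 0.24 Mb, 4.50% held at least 5 CAL27 regions and 0.992% at least 4 SCC13 regions.

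The NOTCH2 region was narrow, at 120516523 to 120517020 (498 bp), and 9.63% of the CAL27 list was as narrow or narrower. The next region of either list lay 226 kb away. The window had 2.78 CAL27 regions per Mb, below the 4.72 of the whole list, and 62.0% of bins of its length held at least 1 CAL27 region. Bins without an SCC13 region made up 56.7%.

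The ligand windows held both the fullest CAL27 window and the only region listed in SCC13 alone. JAG1, a membrane-bound ligand of the Jagged family, had 10 CAL27 regions and none in SCC13, in its window on chromosome 20 (10.52 to 10.75 Mb). JAG2, the other Jagged ligand, had 7 CAL27 and 4 SCC13 regions on chromosome 14 (105.51 to 105.74 Mb). DLL1, a ligand of the Delta-like family, had 2 CAL27 regions and 1 SCC13 region on chromosome 6 (170.49 to 170.70 Mb). Over the 3 ligand windows 21.1% of the CAL27 regions were in both lists (4 of 19, 95% exact interval 6.05 to 45.6), against 32.2% of the whole list. All 4 came from JAG2 and DLL1. JAG1 alone held 10 of the 15 ligand regions in CAL27 only, so the ligand percentage rests largely on 1 window. As for the receptors, the interval treats regions of 1 window as independent and is too narrow to set against the share of the whole list.

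**Figure D2:**
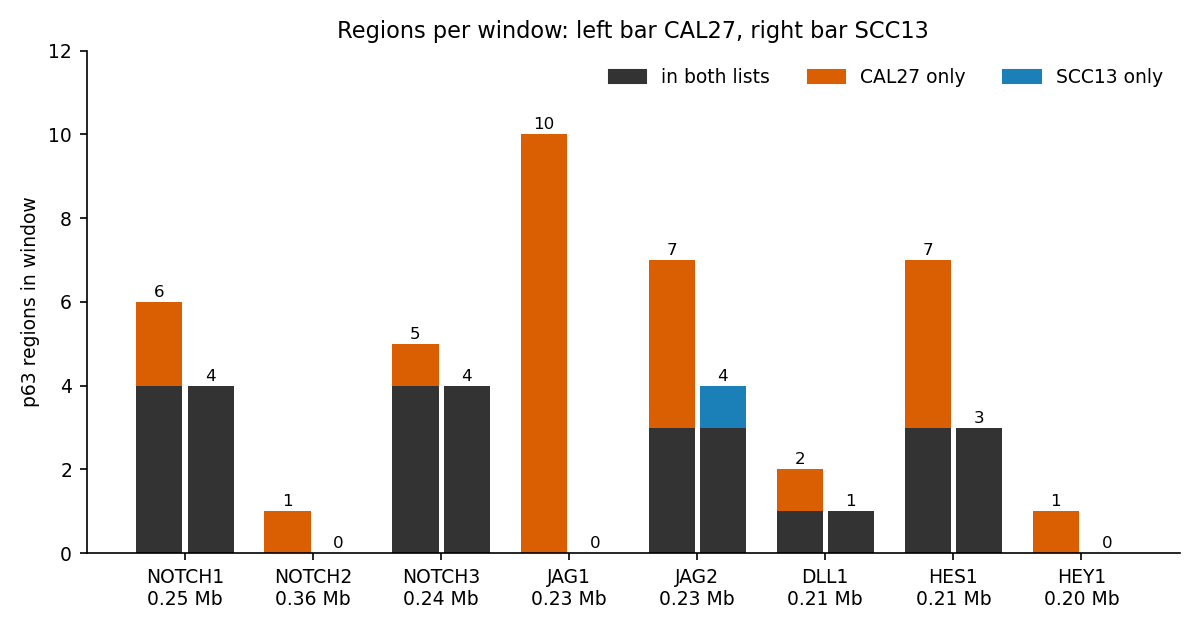
Number of p63 regions in each window, with the CAL27 bar left of the SCC13 bar and the window length under each gene. Dark parts are regions in both lists and coloured parts are in 1 list. JAG1 has the tallest CAL27 bar, at 10, beside an SCC13 count of 0.

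The 10 CAL27 regions at JAG1 spread over the whole window, from 96.4 kb below its centre to 85.5 kb above it, with 5 on each side. They were 440 to 1238 bp wide, with a median of 769 bp close to the 791 bp of the whole list, and the widest lay at 10537994 to 10539231. Close pairs, 4 in number, held 8 of them, with neighbouring midpoints within 10 kb, at 10537994 to 10543913, 10573452 to 10580535, 10645736 to 10648762 and 10713539 to 10720764. The other two lay 26.9 kb below and 0.312 kb above the centre. All 10, with 1 more region beyond the upper edge, formed an unbroken run of 11 CAL27-only regions over 233 kb. Of the 3480 runs of CAL27-only regions in the genome, 41, or 1.18%, were as long or longer, and the longest had 25. These 41 runs hold a larger share of the CAL27-only regions than 1.18%, since each run counts once.

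The SCC13 regions nearest to the JAG1 window had their midpoints 29.5 kb beyond its upper edge and 420 kb beyond its lower edge. The distance from a CAL27 region of the window to the nearest SCC13 region was 59.0 to 241 kb. Of 12727 bins of 0.23 Mb, 0.0864% held at least 10 CAL27 regions, and 68.2% held no SCC13 region. All 11 bins with at least 10 CAL27 regions had SCC13 regions, 1 to 7 each with a median of 5.00. No bin coincided with the JAG1 window, so its own counts are not among these, and bins can cut other such stretches too. Another count, which does not depend on where bins begin, was chosen after these values were seen. Its length and cutoff are those of the JAG1 window, so it is no separate support. Of 13829 stretches of 0.23 Mb that start at a CAL27 region, 98, or 0.709%, held at least 10 CAL27 regions, at 39 separate loci. Only 2 of the 98 held no SCC13 region, and both overlapped the JAG1 window. Stretches overlap each other and are not independent. Just below the cutoff, 1 stretch with 9 CAL27 regions, 9 stretches with 8 and 23 stretches with 7 held no SCC13 region.

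**Figure D3:**
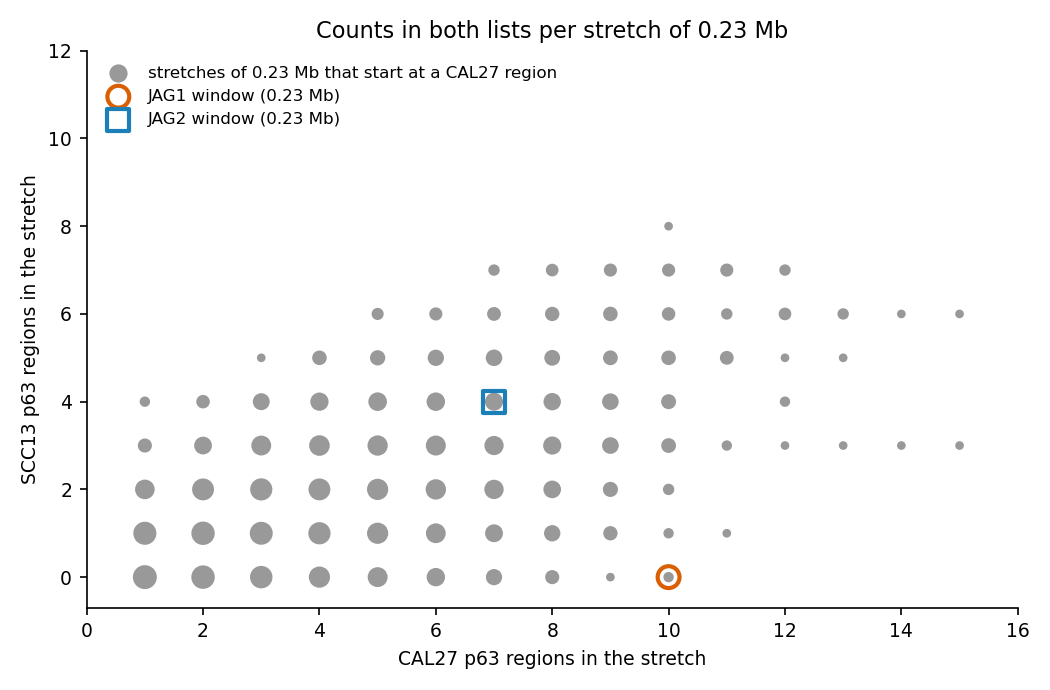
SCC13 regions (vertical axis) against CAL27 regions (horizontal axis) in every 0.23 Mb stretch that starts at a CAL27 region. Dot area grows with the logarithm of the number of stretches, and open symbols mark the JAG1 and JAG2 windows. The JAG1 window, at 10 and 0, lies at the lower right edge of the cloud, and the JAG2 window, at 7 and 4, lies inside it.

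The window of JAG2 has the same length as that of JAG1 and looked different. Its regions in both lists lay at 105553325 to 105555285 (1961 bp), 105563636 to 105564449 (814 bp) and 105633010 to 105634037 (1028 bp). The first was the widest of all 40 regions, and 98.6% of the CAL27 list and 97.9% of the SCC13 list were as narrow or narrower. A pair of regions in CAL27 only, 1367 and 1515 bp wide, lay between the first and second of these and made a group of 4 within 11.1 kb, the largest group of neighbours in any of the windows. The other CAL27-only pair spanned 5.08 kb and held the narrowest of all 40 regions, at 297 bp. The SCC13-only region, named here after its values were seen, lay at 105530275 to 105531073 (799 bp), 23.6 kb from the nearest region. Below the centre lay 7 of the 8 regions, which for a gene on the minus strand is the downstream direction, inside or outside the gene. Of bins of 0.23 Mb, 0.990% held at least 7 CAL27 regions and 0.872% at least 4 SCC13 regions.

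At DLL1 both regions lay next to each other, with midpoints 1.68 kb apart. The one in both lists was at 170535620 to 170536802 (1183 bp), and the one in CAL27 only at 170534077 to 170534990 (914 bp). Counts as high were common, since 25.3% of bins of 0.21 Mb held at least 2 CAL27 regions and 29.8% at least 1 SCC13 region. The next other SCC13 region lay 556 kb from the DLL1 region in both lists.

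The windows of the 2 target genes differed in the same direction in both lists. HES1, a repressor that is the classical direct target of Notch, had 7 CAL27 and 3 SCC13 regions on chromosome 3 (193.75 to 193.96 Mb). HEY1, a related repressor, had 1 CAL27 region and none in SCC13 on chromosome 8 (80.58 to 80.78 Mb). Bins with at least 7 CAL27 regions made up 0.617% of those of the HES1 length, and 2.50% held at least 3 SCC13 regions. For the HEY1 length, 47.2% of bins held at least 1 CAL27 region and 71.2% held none of SCC13.

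At HES1 the regions in both lists and those in CAL27 only lay in separate parts of the window. This arrangement of 7 regions was not a planned measure and was not tested. Of these 7 CAL27 regions 3 were in both lists, against 32.2% of the whole CAL27 list. The 3 in both lists came first along the chromosome, at 193776046 to 193776632 (587 bp), 193788277 to 193789515 (1239 bp) and 193807170 to 193807984 (815 bp), which is 47.4 to 78.7 kb below the centre. With 1 more below the window they made a run of 4 regions in both lists, and 2.87% of such runs were as long or longer. The 4 in CAL27 only followed, between 2.50 kb below and 24.2 kb above the centre. Of these 4, the first 3 formed a group at 193851960 to 193859904, 7.94 kb long, with widths of 1087, 651 and 892 bp. Their distances to the nearest SCC13 region were 44.9, 49.7 and 51.9 kb. The run of CAL27-only regions went on beyond the window to 5 regions over 176 kb, and 15.9% of such runs were as long or longer. HES1 is on the plus strand in the GRCh38 table, so the regions in both lists lay toward the upstream side of the window. The HEY1 region was at 80740370 to 80741617 (1248 bp), and the nearest other CAL27 region was 131 kb away.

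**Figure D4:**
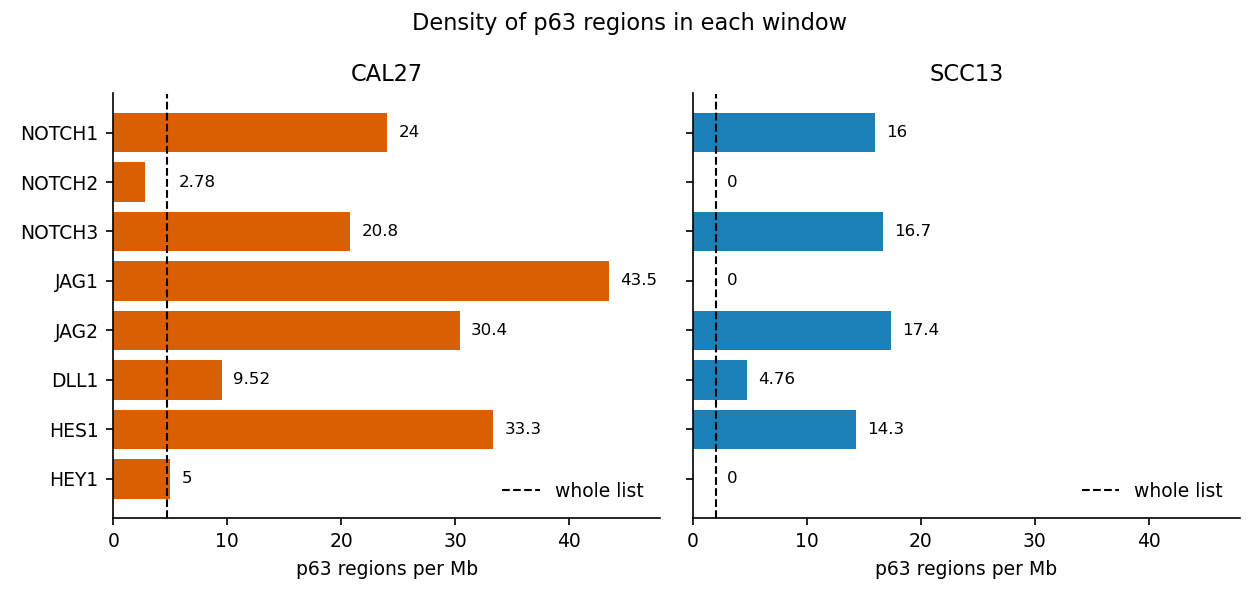
Density of p63 regions in each window, in regions per Mb, for CAL27 on the left and SCC13 on the right. Dashed lines give the density of the whole list, 4.72 per Mb for CAL27 and 2.01 for SCC13. NOTCH1, NOTCH3, JAG2, DLL1 and HES1 exceed the line in both panels. JAG1 and HEY1 exceed it in CAL27 and are at 0 in SCC13, and NOTCH2 lies below it in both.

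Ordered by density in CAL27, the windows ran from JAG1 (43.5 per Mb) through HES1 (33.3), JAG2 (30.4), NOTCH1 (24.0), NOTCH3 (20.8), DLL1 (9.52) and HEY1 (5.00) to NOTCH2 (2.78). In SCC13 the order was JAG2 (17.4), NOTCH3 (16.7), NOTCH1 (16.0), HES1 (14.3) and DLL1 (4.76), with JAG1, NOTCH2 and HEY1 at 0. Neighbours in these orders rest on counts that differ by 0 to 3 regions for CAL27 and by 0 to 2 for SCC13, with no replicate spread to set them against. Relative to its own chromosome, the CAL27 density was 7.55 times as high at HES1, 6.52 times at JAG1 and 6.08 times at JAG2. It was 4.97 times at NOTCH1, 3.23 times at NOTCH3, 1.85 times at DLL1, 1.30 times at HEY1 and 0.489 times at NOTCH2. In SCC13 the density was 9.53 times as high at NOTCH1, 7.88 times at HES1, 7.69 times at JAG2, 6.05 times at NOTCH3 and 2.31 times at DLL1. The NOTCH1 and NOTCH3 values rest largely on regions near the upper edge: with windows cut by 50 kb on each side, NOTCH1 kept 1 CAL27 region and 0 SCC13 regions, and NOTCH3 kept 2 CAL27 regions and 1 SCC13 region. Under the same change JAG1 kept 6 CAL27 regions, JAG2 kept 4 CAL27 and 2 SCC13 regions, HES1 kept 5 CAL27 regions and 1 SCC13 region, and DLL1 and HEY1 kept 0 in either list.

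Neighbouring regions were common in the windows. With midpoints within 10 kb counted as neighbours, 24 of the 39 CAL27 regions had one, or 61.5%, against 21.2% of the whole CAL27 list. In SCC13 6 of 16 had one, or 37.5%, against 9.99% of the whole list. Denser regions have more neighbours, and the windows were denser than the rest in both lists, so these shares are not a trait separate from density. Whether they exceed those of equally dense stretches was not tested. These made 10 groups in CAL27 and 3 in SCC13. The SCC13 groups had 2 regions each, all also in the CAL27 list, at NOTCH1, NOTCH3 and JAG2.

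Widths in the windows overlapped those of the lists. The median was 892 bp for CAL27 members, against 791 bp in the whole CAL27 list, and 838 bp for SCC13 members, against 862 bp. Regions of the windows in CAL27 only had a median of 896 bp, against 723 bp for all CAL27-only regions. Those in both lists had 860 bp, against 934 bp for all such regions. In the whole lists, regions found in both were thus wider than CAL27-only regions at the median, and in the Notch windows they were not, over 15 and 24 regions. Width says nothing certain about how strongly p63 was bound.

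**Figure D5:**
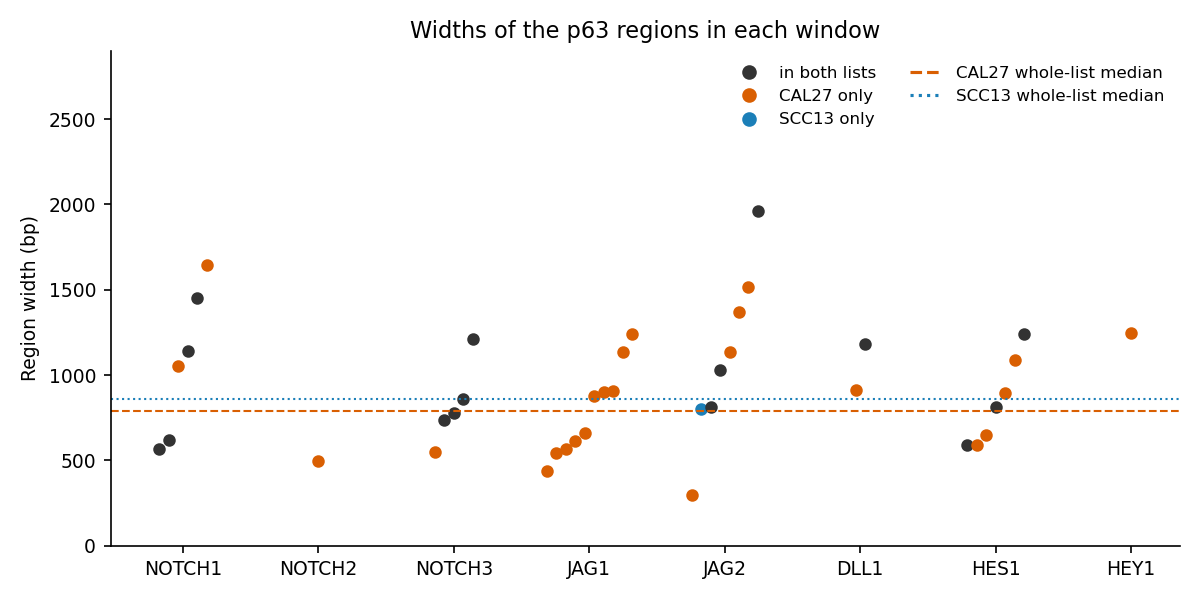
Width of each p63 region in bp by window, with the regions of a window sorted by width and coloured by list. Horizontal lines are the whole-list medians, 791 bp for CAL27 and 862 bp for SCC13. JAG2 holds both the narrowest region, at 297 bp, and the widest, at 1961 bp.

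The nearest region inside an edge was 1.15 kb from the upper end of the NOTCH3 window and was in both lists. The nearest outside was a CAL27 region 9.47 kb beyond the upper edge of the DLL1 window, followed by CAL27 regions 12.2 kb above the NOTCH3 window and 18.6 kb below the JAG2 window.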

How the data were processed

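In each line p63-bound chromatin was crosslinked, sheared and pulled down with an antibody, as the labels' protocols describe. Per the submitters' processing notes, the tools were Bowtie2, MACS2 and SAMtools 1.8, and positions are those of hg19. Which tool did what, the peak threshold, the role of the samples titled none and how replicates were merged are not given in these sources. Per the labels, 1 deposited list stands for both p63 replicates of a line; it has 3 columns and no header.

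The members, lists and measures were chosen with earlier results of these data known. Regions were assigned to windows by their midpoint, matched between lists by an overlap of at least 1 bp, and called neighbours where midpoints lay within 10 kb. Bins of each window's length were laid from the first to the last listed region of each of 23 chromosomes. Percentages have exact Clopper-Pearson intervals at 95%. Densities have exact Poisson intervals and median widths have intervals from ranked widths, both at 95%. All of these treat regions as independent. No test was made, since each line has 1 list. All 8 genes are named; regions are printed where they are in both lists, widest in a list, or in a window of 5 or fewer. Positions are counted from 1. Counts at other Notch pathway genes and of sequence motifs were planned but not run, since no genome or annotation of hg19 was used. The overlap, window, grouping and bin functions were tested on simulated regions. Calculations used Python 3.11.15, numpy 2.4.6, pandas 2.3.3, scipy 1.17.1 and matplotlib 3.10.9.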

Additional observations from a re-analysis of the deposited data

How the results depend on the processing

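No paired analysis was possible because each line has 1 list for both numbered replicates; for the same reason none was left out. With windows cut by 50 kb on each side, 19 CAL27 and 4 SCC13 regions remained, the SCC13 density was 3.54 per Mb, the shared percentage was 21.1% of CAL27 and 100% of SCC13 regions, and 4 groups of neighbours were left in place of 13. The lists hold no score for a stricter threshold, so regions up to the median width of each list were left out instead. This left 24 CAL27 and 7 SCC13 regions, 12.4 and 3.63 per Mb, and 4 groups. The CAL27 median was then 1134 bp, and the shared percentage was 100% in SCC13. Leaving out narrow regions lowers counts and densities and raises the median by construction. The density of the rest of each list was not recomputed, so these shifts show nothing particular to the windows. Counting neighbours once gave 13.0 CAL27 regions per Mb, and joining within 5 kb gave 7 groups. The other 40 recomputed values for the 8 windows together stayed within the interval of the main value or 1.5 times the count. Those with windows extended by 50 kb were among them. So were those with stricter overlap rules, which could not change, since every member in both lists had the same start and end. The intervals were wide, so staying within them is a weak criterion. For densities they were 14.4 to 27.6 per Mb in CAL27 and 4.74 to 13.5 in SCC13. For median widths they were 659 to 1130 bp and 739 to 1210 bp. An SCC13 shared percentage of 78.95%, with windows extended by 50 kb, against 93.75% also counted as staying. Of 77 values for single windows and bins, 21 left that range, 19 of them lower and 2 higher. Without the JAG1 window, an alternative chosen after the values were seen, 51.7% of CAL27 regions were in both lists and the CAL27 density was 17.1 per Mb. With bins moved along by 50% of their length, also added, 0.0551% in place of 0.0864% held at least 10 CAL27 regions. Depth and background are unknown.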

Other observations

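Regions in both lists and regions in CAL27 only were placed differently along the windows, a division made after the values were seen. The outer 50 kb on each side made up 41.5% of the window length. Of the 15 regions in both lists, 11 lay there, or 73.3%, and of the 24 in CAL27 only, 9 lay there, or 37.5%. For all SCC13 members the share was 75.0%, and for all CAL27 members 51.3%. NOTCH1 had all 4 of its SCC13 regions in the outer part, and NOTCH3 had 3 of 4. JAG2 had 2 of 4, HES1 had 2 of 3, and DLL1 had its single one. In the inner parts of all windows there were 19 CAL27 regions, 6 of them at JAG1, 5 at HES1 and 4 at JAG2, against 4 SCC13 regions, 2 of them at JAG2. No test was made of this difference, and regions of 1 window are not independent of each other.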
